A study of Mus musculus with 12 samples.

Results

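The chemokines, interleukins and receptors of both families were followed in mouse epididymal white adipocytes. The cells were cultured with or without a stimulus to break down stored fat and with or without lipase inhibitors. The members are all genes of the count table whose symbol begins with Ccl, Cxcl, Ccr, Cxcr or Il followed by a digit, which gave 130 of 20295 genes. By their symbols, 32 are chemokine ligands, 17 chemokine receptors, 38 interleukins, 40 interleukin receptor chains, 2 inhibitors (Il1rn and Il18bp) and 1 an enzyme (Il4i1). Of the 130 members, 68 had enough counts for a test and 62 were too low to compare. The rule used only symbols and no measured value.

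The cells were primary adipocytes of lean male C57/BL6J mice, freed from epididymal fat with collagenase and collected as the floating fraction, and the age of the mice is not given in the sources used here. All 4 groups were kept in a hydrogel at 50000 cells per well and treated after 2 days of culture, so that every group had gone through digestion and culture, and what was kept was the floating fraction and not a sorted cell type. The DMSO group received neither agent, the ISO group was given isoproterenol, an agonist of the β-adrenergic receptors, for 3 h, the Lip group received lipase inhibitors, and the Lip+ISO group received the inhibitors before ISO. Each group had 3 RNA-seq libraries, and the study states 3 independent experiments, so the p-values measure the spread between these 3. The inhibitors named in the methods are Atglistatin against the triglyceride lipase ATGL and CAY10499 against the hormone-sensitive lipase HSL. A figure legend of the study gives SR-3420, an activator of lipolysis, as the stimulus of these white adipocytes, whereas the titles of the samples give ISO, and ISO is used here.

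Chemokines are small secreted proteins that direct the migration of leukocytes, and they act through G protein-coupled receptors of the Ccr and Cxcr families. Interleukins act through paired receptor chains that signal mainly through JAK and STAT proteins, or, in the interleukin 1 and 17 families, through adaptor proteins and NF-kappa-B. Adipose tissue is a known source of Il6 and Ccl2, and its resident macrophages, eosinophils and innate lymphoid cells respond to Il33, Il4 and Il13.

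The promoters of 5 members are shown first. They are the 4 members that rose with ISO and hold the core TGACG of the cAMP response element, and Cxcl10, which fell. Ccr1, Il10 and Il22ra1 also rose and hold an NF-kappa-B match without this core, and they are not shown. Each run gives the plus or minus strand 5′ to 3′ in mm9, ends at the last base before the start of the gene in the table, and has motif matches in capitals. Il6 is cut 47 bases earlier, at the more upstream start of the RefSeq promoter table. Capitals mark the core of the cAMP response element, TGACG or its reverse complement, the NF-kappa-B site and the AP-1 site, and matches that touch run together. Il6 lies on the plus strand (chr5:30339451-30339653), Cxcl1 on the plus strand (chr5:91320021-91320270), Il1r1 (chr1:40281675-40281924) and Il1rl1 (chr1:40496224-40496473) on the plus strand, and Cxcl10 on the minus strand (chr5:92777916-92778165).
Il6: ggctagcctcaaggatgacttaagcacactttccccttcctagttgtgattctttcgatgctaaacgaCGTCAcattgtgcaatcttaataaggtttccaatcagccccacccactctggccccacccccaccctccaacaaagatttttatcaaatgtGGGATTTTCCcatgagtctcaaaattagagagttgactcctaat
Cxcl1: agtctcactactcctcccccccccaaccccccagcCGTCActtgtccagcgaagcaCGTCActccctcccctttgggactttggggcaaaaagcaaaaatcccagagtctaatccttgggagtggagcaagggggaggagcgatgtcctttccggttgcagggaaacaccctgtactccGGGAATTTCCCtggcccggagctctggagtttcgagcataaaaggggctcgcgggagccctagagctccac
Il1r1: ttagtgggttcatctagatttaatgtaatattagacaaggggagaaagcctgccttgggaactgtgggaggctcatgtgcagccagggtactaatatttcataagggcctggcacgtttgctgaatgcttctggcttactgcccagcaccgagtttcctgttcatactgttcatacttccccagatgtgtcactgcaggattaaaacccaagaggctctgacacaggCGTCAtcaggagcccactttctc
Il1rl1: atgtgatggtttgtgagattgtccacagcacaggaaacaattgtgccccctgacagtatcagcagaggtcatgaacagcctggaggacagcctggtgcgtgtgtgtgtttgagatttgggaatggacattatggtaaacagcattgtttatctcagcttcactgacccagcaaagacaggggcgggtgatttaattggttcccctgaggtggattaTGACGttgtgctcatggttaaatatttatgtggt
Cxcl10: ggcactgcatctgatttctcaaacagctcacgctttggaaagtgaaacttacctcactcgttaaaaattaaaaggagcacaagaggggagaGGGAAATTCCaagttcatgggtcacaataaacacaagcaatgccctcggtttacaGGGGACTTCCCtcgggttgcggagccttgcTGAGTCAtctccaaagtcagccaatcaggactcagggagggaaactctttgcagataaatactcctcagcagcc

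In the window of 250 bases before the start, Il6 held TGACG 182 to 178 bases upstream on the minus strand and an NF-kappa-B site 91 to 82 bases upstream. Cxcl1 held TGACG at 2 places and an NF-kappa-B site read on both strands. Il1r1 held TGACG 23 to 19 bases upstream and Il1rl1 34 to 30 bases upstream. Cxcl10, which fell, held no TGACG, an AP-1 site 74 to 68 bases upstream and NF-kappa-B matches at 2 places.

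The core TGACG was found before 4 of the 13 members that were higher in ISO than in DMSO (30.8%) and before none of the 5 that were lower. It occurred before 21.2% of all 20295 genes and 14.7% of the 68 tested members. The whole cAMP response element TGACGTCA, which contains the core, was found before 2.14% of all genes and none of these 13. An NF-kappa-B site stood before 5 of the 13 (38.5%), 18 of the 68 tested members (26.5%) and 8.05% of all genes. The AP-1 site TGANTCA stood before 1 of the 13 (7.69%), 11.8% of tested members and 5.91% of all genes, and the STAT site TTCNNNGAA before 2 of the 13 (15.4%), 10.3% and 6.71%. Both strands were searched. These are matches of letters and were not tested as sites.

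Library totals ranged from 22632220 to 43707557 counts, and the members took 0.183% to 0.32% of them. Between 78 and 100 members had at least 1 count in a library. Adipocyte markers led the markers of cell types, with a summed level of 19890 to 32080 CPM (counts scaled to a library total of 1e+06) in every library. By group they summed to 26010 to 32080 CPM in DMSO, 23360 to 30360 in ISO, 23610 to 27120 in Lip and 19890 to 26330 in Lip+ISO. Markers of other cells were present too. Those of macrophages summed to 56.3 to 72.55 CPM in DMSO, 117.5 to 176.2 in ISO, 61.39 to 66.12 in Lip and 75.7 to 128.3 in Lip+ISO. Fibroblast and progenitor markers summed to 321 to 570.5, 644.4 to 882.4, 441 to 472 and 421.2 to 547 CPM in the same order. Endothelial markers summed to 77.91 to 149.3, 135.3 to 274.3, 40.16 to 140.1 and 59.83 to 175.3 CPM in the same order, with a wide spread within each group.

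Receptor chains and chemokine ligands made up the top of the list when levels were compared per length (CPM per kilobase of counted exons, mean of 12 libraries). Il4ra, the chain shared by the receptors of Il4 and Il13, led with 254.0 ± 73.8 (SD) CPM per kilobase and took 40.5% to 62.8% of all member counts in a library. Il6st, the signal-transducing chain gp130 of the Il6 family, followed with 50.91 CPM per kilobase, Ccl2 with 47.29 and Ccl7 with 45.67. The latter 2 attract monocytes, and their levels per kilobase were within the SD of either (9.05 and 6.99). These means pool the 4 groups. In ISO alone the mean of Cxcl1 (46.94, SD 23.3) stood above those of Il6st (44.98), Ccl7 (41.21) and Ccl2 (40.92). That mean was raised by ISO 3, as Cxcl1 was at 29.4, 34.3 and 69.9 CPM in ISO 1, ISO 2 and ISO 3. The differences between these 4 means are within the SD of Cxcl1, so their order is not settled. The ISO mean of Cxcl14 (34.07, SD 5.15) stood above that of Cxcl9 (21.76, SD 2.27). The interferon-inducible Cxcl9 stood at 34.17, the Il17 receptor chain Il17ra at 27.95, the neutrophil attractant Cxcl1 at 27.01, the eosinophil attractant Ccl11 at 19.58, Il17rc at 18.62 and Il3ra at 14.62 CPM per kilobase. Interleukins themselves were lower: Il34, a second ligand of the receptor of Csf1, led them at 10.05 (rank 18), followed by Il11 at 5.08, Il17d at 4.64 and Il6 at 4.34 CPM per kilobase. In the ISO libraries Il11 averaged 12.08 and Il34 8.96 CPM per kilobase, while in DMSO Il11 averaged 1.24.

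**Figure D1:**
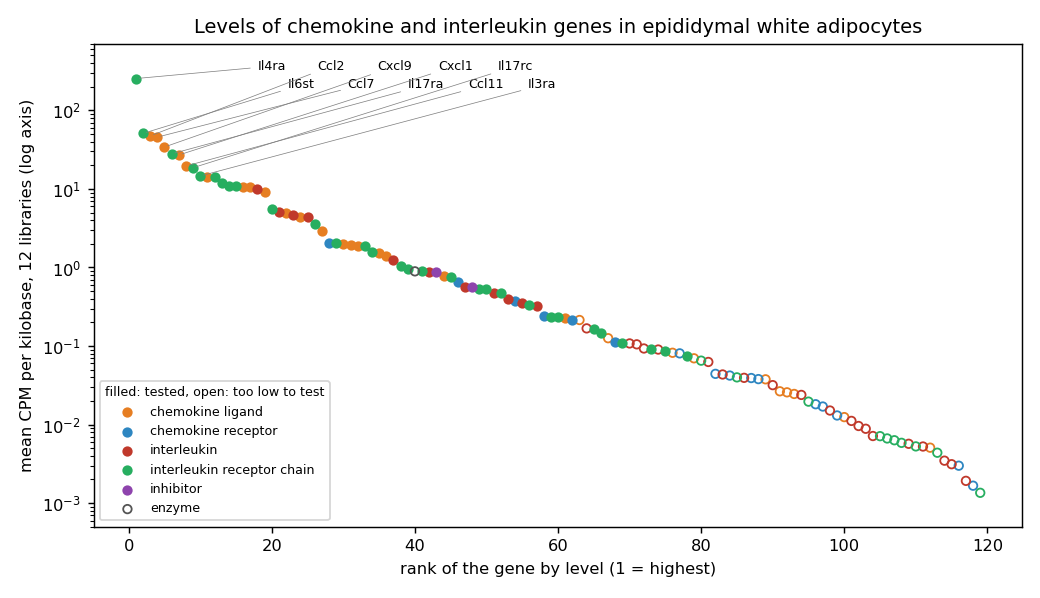
Mean level over 12 libraries, in CPM per kilobase of counted exons on a log axis, of the members with at least 1 count, against their rank; colour gives the role, filled points were tested and open points were too low. Il4ra stands alone at 254.0 CPM per kilobase, and open points lie mostly at the low end.

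The 62 members that could not be compared had 30 counts at most in a library (Il1f9) and 66 at most over all 12 (Cxcl11). Of them, 11 had 0 counts in every library, 27 had 1 to 9 counts in all and 24 had 10 or more. Most interleukins belonged here: 27 of 38 were too low, against 10 of 40 receptor chains, 13 of 32 chemokine ligands and 11 of 17 chemokine receptors. Il1b, the inflammatory cytokine of activated macrophages, had 1 count in 1 ISO library and 1 in 1 Lip+ISO library and 0 in the other 10. A count of 0 allows up to 0.132 CPM in the shallowest case (the floor of 3 counts, counting error only), so levels below that were not detectable at this depth.

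The first question was which members responded to β-adrenergic stimulation. Il6, Il11, Il33, Il10, the chemokines Cxcl14, Cxcl1 and Ccl6, the receptor Ccr1 and the receptor chains Il1rl1, Il1r1, Il1rl2, Il7r and Il22ra1 rose with ISO, and Cxcl10, Cxcl9, Il6ra, Il4ra and Il17ra fell. In edgeR's quasi-likelihood test at an adjusted p (Benjamini-Hochberg over 13543 genes) of 0.05 or less, 13 of the 68 tested members were higher in ISO than in DMSO (19.1%, against 12.3% of all genes tested) and 5 were lower (7.35%, against 13.9%). Of these, 12 and 1 also changed by at least 1 on the log2 scale, against 5.68% and 1.8% of all genes. By role, 4 of 11 interleukins, 5 of 30 receptor chains, 3 of 19 chemokine ligands and 1 of 6 chemokine receptors rose, while 3 receptor chains and 2 chemokine ligands fell. The median log2 fold change was 0.35 over the 68 members and 0.00 over all genes. In all 18 the 3 ISO libraries did not overlap the 3 DMSO libraries. The 18 were chosen by this same test, so that adds no support to it. The share of all genes without overlap was not counted. In bulk RNA, a different number of cells of a type and a different amount of RNA per cell cannot be told apart, and the part of the macrophage and fibroblast markers in these changes was not tested.

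Il6, which signals through Il6ra and gp130, was measured at 0.790, 1.68 and 0.822 CPM in DMSO and at 5.68, 7.85 and 6.27 CPM in ISO. Every ISO library lay above every DMSO library. The log2 fold change was 2.61 ± 0.27 (SE), a 6.09-fold rise, with an adjusted p of 2.08e-05 in edgeR's quasi-likelihood test. Il11, another cytokine of the gp130 family, went from 1.64, 2.31 and 2.90 CPM to 17.0, 21.1 and 28.8 CPM. Its 9.80-fold rise (log2 3.29 ± 0.37, adjusted p 4.22e-05) was the largest among the members with at least 10 counts in each DMSO library, and the ISO libraries were far above the DMSO libraries.

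Il33, an alarmin of the Il1 family that signals through Il1rl1, had 0, 16 and 1 counts in the DMSO libraries and 22, 144 and 82 in the ISO libraries. The lowest ISO library (0.969 CPM) was close to the highest DMSO library (0.671 CPM), and the other 2 stood clear. The fitted log2 fold change was 3.53 ± 1.04 (adjusted p 0.0248). It was past the threshold in 10 of 15 fits with libraries left out and was not without DMSO 1, DMSO 3, ISO 2 or ISO 3 alone or without all libraries numbered 3 (adjusted p up to 0.167), with log2 fold changes from 2.77 to 6.88. Il10, an anti-inflammatory cytokine, rose from 0.126, 0.588 and 0.157 CPM to 1.23, 2.01 and 1.30 CPM (log2 2.42 ± 0.66, adjusted p 0.0176). Its libraries were few in counts (4, 14 and 4 against 28, 89 and 30), and the call was lost without DMSO 1, DMSO 3 or ISO 2 (adjusted p up to 0.0853 over the 15 fits).

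Cxcl14, a chemokine of skin and adipose tissue among others, stood at 10.2, 18.3 and 8.89 CPM in DMSO and at 52.0, 64.0 and 70.5 CPM in ISO. The groups were far apart, and the rise was 5.01-fold (log2 2.32 ± 0.30, adjusted p 0.000112). Cxcl1 was at 12.1, 19.9 and 28.1 CPM in DMSO and at 29.4, 34.3 and 69.9 CPM in ISO. The third ISO library carried much of that difference, and the lowest ISO library barely passed the highest DMSO library. The rise of Cxcl1 was 1.16 ± 0.38 on the log2 scale (adjusted p 0.0379), and it was no longer past the threshold without DMSO 1, DMSO 2 or ISO 3 (adjusted p up to 0.197 over the 15 fits). Ccl6, a macrophage-made ligand of Ccr1, went from 0.979, 1.55 and 1.41 CPM to 2.33, 4.07 and 3.59 CPM (log2 1.35 ± 0.35, adjusted p 0.0136), with the call lost without DMSO 1 or ISO 2 (up to 0.126).

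Ccr1, a receptor for several Ccl chemokines on myeloid cells, was at 0.442, 1.26 and 0.901 CPM in DMSO and at 3.88, 4.79 and 4.89 CPM in ISO, with no overlap. It rose 5.27-fold (log2 2.397 ± 0.39, adjusted p 0.000668). Of the other chemokine receptors of the fixed list, Ccr2, the receptor of Ccl2, had group means of 0.341 CPM in DMSO and 0.429 in ISO, and Cxcr4, the receptor of Cxcl12, of 3.48 and 3.97. Neither passed the test, and their libraries overlapped.

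Among the receptor chains, Il1rl1 (the Il33 receptor ST2) was at 1.64, 2.434 and 1.096 CPM in DMSO and at 5.55, 7.08 and 5.10 CPM in ISO, which were clear of each other. Its log2 fold change was 1.78 ± 0.37 (adjusted p 0.00337). Il1r1, the signalling receptor of Il1, rose from 43.4, 56.1 and 42.1 CPM to 78.4, 86.5 and 109 CPM (log2 0.95 ± 0.16, adjusted p 0.000867). Il1rl2, the receptor of the Il36 cytokines, rose by 1.01 ± 0.31 (adjusted p 0.0287), but not when the fit held only these 2 groups or left out DMSO 1, DMSO 3, ISO 2 or ISO 3 (adjusted p up to 0.318). Il7r rose by 1.49 ± 0.41 (adjusted p 0.0169; lost without DMSO 3 or ISO 1, up to 0.122), and Il22ra1, with at most 11 counts in a DMSO library, by 1.90 ± 0.56 (adjusted p 0.0245; lost without DMSO 1, DMSO 3, ISO 1 or ISO 2, up to 0.181). Il1rn, the natural antagonist of Il1r1, was at 1.55, 1.64 and 1.33 CPM in DMSO and at 4.36, 1.90 and 4.97 CPM in ISO. The log2 difference of 1.30 ± 0.46 missed the threshold (adjusted p 0.0549). It passed when the fit blocked on the replicate number (adjusted p 0.0457), when the fit held only these 2 groups, and with DESeq2.

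Il1r1, Il1rl2 and Il1rl1 lie side by side on chromosome 1, in a row of 6 interleukin 1 receptor family genes that runs from Il1r2 at 40141613 to the end of Il18rap at 40608550 (467 kb, mm9). The genes at the ends did not follow them past the threshold. Il1r2, the decoy receptor, had a log2 fold change of 0.87 ± 0.61 (adjusted p 0.316) and Il18r1 of 0.33 ± 1.03 (adjusted p 0.837), and Il18rap was too low to test. With SEs of this size, changes like those of the middle genes could not be told from none in Il1r2 and Il18r1.

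**Figure D2:**
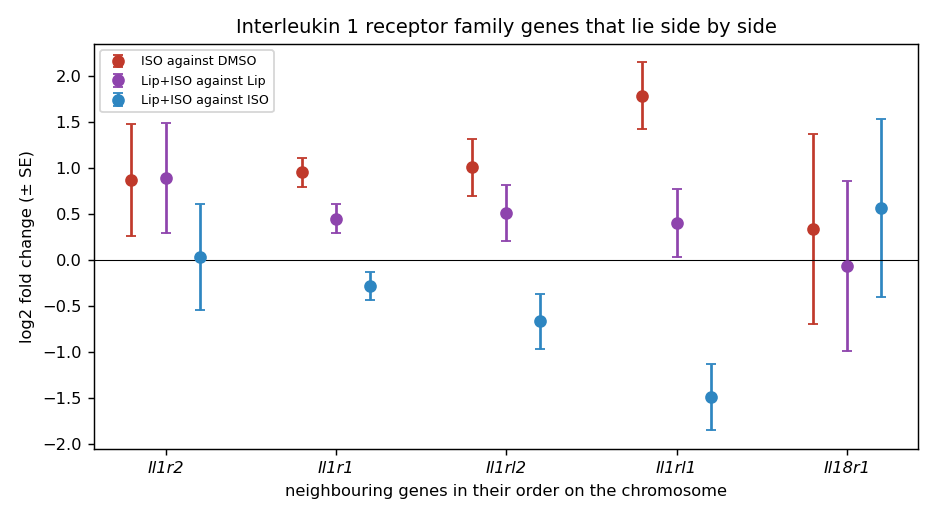
Log2 fold changes with their standard errors (edgeR, n = 3 libraries per group) for the 5 tested genes of the interleukin 1 receptor row, in chromosomal order, in 3 comparisons. Il1r1, Il1rl2 and Il1rl1 lie above 0 in ISO against DMSO, Il1rl1 lies below 0 in Lip+ISO against ISO, and the bars of Il1r2 and Il18r1 are wide.

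Among the members that fell, Cxcl10, an interferon-inducible attractant of T cells, was at 6.95, 8.14 and 8.65 CPM in DMSO and at 2.29, 3.78 and 2.72 CPM in ISO. All ISO libraries were below all DMSO libraries. It fell by 1.42 ± 0.26 on the log2 scale (adjusted p 0.00177). The span of Cxcl10 lies within that of Art3, so reads of the 2 genes could have been mixed. Cxcl9, its neighbour and fellow ligand of Cxcr3, was at 114, 111 and 151 CPM against 70.8, 59.1 and 59.8 CPM (log2 fold change -0.99 ± 0.29, adjusted p 0.0247; lost without DMSO 3, ISO 2 or ISO 3, up to 0.143).

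Il6ra, the ligand-binding chain of the Il6 receptor, fell from 38.6, 34.2 and 44.3 CPM to 20.4, 18.5 and 28.7 CPM (log2 fold change -0.80 ± 0.21, adjusted p 0.0143; lost without DMSO 3 or ISO 2, up to 0.0893). Il4ra fell from 1323, 1052 and 1348 CPM to 931.1, 739.2 and 842.0 CPM (log2 fold change -0.57 ± 0.17, adjusted p 0.0251), and 7 of the 15 fits with libraries left out lost this call, among them those without DMSO 1, DMSO 3, ISO 2 or ISO 3 (up to 0.101). Il17ra fell from 124, 112 and 138 CPM to 89.6, 79.0 and 99.5 CPM (log2 fold change -0.48 ± 0.11, adjusted p 0.00748; lost without all libraries numbered 1, at 0.0637). In each of these 3 genes the groups did not overlap. Il6st, the partner chain of Il6ra, lay between 233.0 and 265.7 CPM in the 6 libraries and did not pass (log2 fold change -0.11 ± 0.08, adjusted p 0.319).

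The other members of the fixed list did not pass. Ccl2 was at 32.0, 47.4 and 49.3 CPM in DMSO and at 28.0, 37.3 and 33.6 CPM in ISO. The ranges overlapped, and the log2 fold change of -0.38 ± 0.17 did not pass (adjusted p 0.124), but it did when the fit blocked on the replicate number (adjusted p 0.00402). Ccl7 had a mean of 34.5 CPM in DMSO and 32.9 in ISO, the stromal chemokine Cxcl12 34.5 and 39.1, the neutrophil attractants Cxcl2 1.89 and 2.59 and Cxcl5 1.98 and 2.95, Il15 0.472 and 0.451, Il18 0.921 and 0.790, Il13ra1 3.41 and 5.12 and Il10rb 20.6 and 20.1 CPM. Ccl11 was at 13.7, 28.0 and 10.8 CPM in DMSO and at 31.3, 38.4 and 35.7 CPM in ISO. Its groups did not overlap, and its log2 fold change of 1.01 ± 0.38 missed the threshold (adjusted p 0.0654) but passed when the fit blocked on the replicate number (adjusted p 0.00137) or held only the 2 groups.

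**Figure D3:**
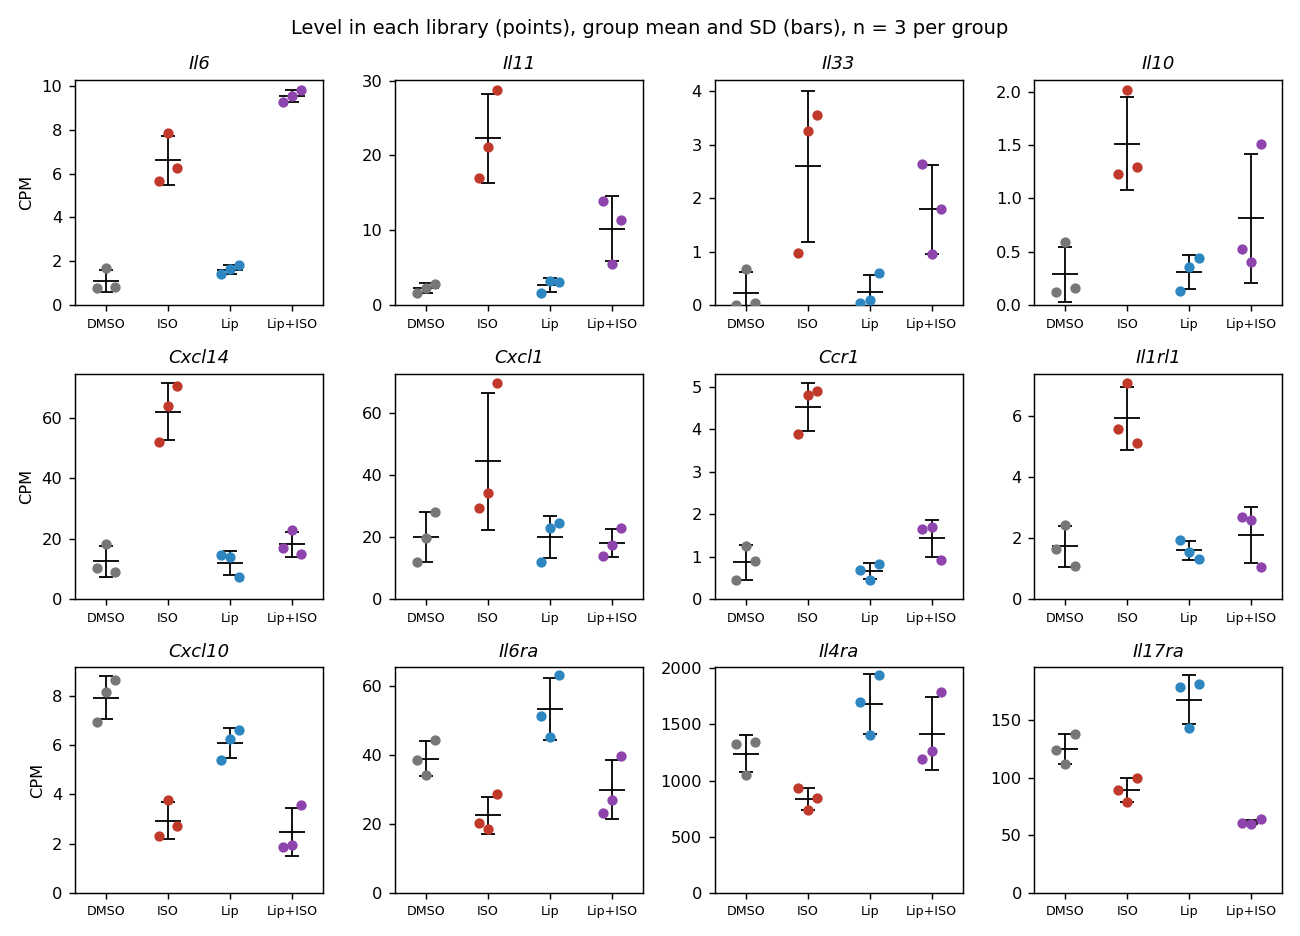
Level in CPM of 12 members in each of the 12 libraries (points), with the group mean and SD (n = 3), each panel from 0. Il6, Il11, Cxcl14, Ccr1 and Il1rl1 stand higher in all ISO libraries than in DMSO, Cxcl10 and Il6ra lower, and Il17ra is lowest in Lip+ISO.

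A second question was whether ISO had these effects when the lipases were inhibited. Il6, Il11 and Il22ra1 rose also in Lip+ISO against Lip, and Il17ra, Cxcl10, Il6ra, Il15ra and Ccl7 fell. Of the 68 tested members 3 were higher (4.41%, against 11.5% of all genes tested) and 5 lower (7.35%, against 15.8%), and the median log2 fold change was 0.14 against 0.00 over all genes. In the fit that blocks on the replicate number, 10 members were higher and 7 lower. The shares of all genes above are not of that fit, so this gain is not shown to be particular to the members. This comparison shares no library with ISO against DMSO. Of the 13 members higher in ISO than in DMSO, 12 had a positive log2 fold change in the presence of inhibitors too and 3 passed. All 5 lower members had a negative one, and 3 of them passed. The same counts were not made over all genes that changed with ISO, so these do not set the members apart. A call in only one comparison does not show that the responses differed. That difference was tested as an interaction and is given below.

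Il6 was at 1.41, 1.64 and 1.83 CPM in Lip and at 9.26, 9.56 and 9.81 CPM in Lip+ISO. The Lip+ISO libraries were tightly grouped and were the highest of all 4 groups. The log2 fold change was 2.55 ± 0.26 (5.84-fold, adjusted p 1.09e-05). Il11 went from 1.65, 3.25 and 3.16 CPM to 13.9, 5.45 and 11.3 CPM (log2 1.92 ± 0.36, adjusted p 0.00137). Its second Lip+ISO library was well below the other 2, yet above all Lip libraries. Il22ra1 passed narrowly (log2 1.65 ± 0.57, adjusted p 0.0478) and did so in only 2 of 15 fits with libraries left out, where its adjusted p reached 0.272.

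Il17ra fell from 179, 143 and 182 CPM to 60.7, 60.0 and 64.0 CPM. The Lip+ISO libraries were nearly level with each other and below every other library. The fall was 1.45 ± 0.12 on the log2 scale, a 2.73-fold difference (adjusted p 1.19e-06). Cxcl10 fell from 5.39, 6.25 and 6.62 CPM to 1.86, 1.93 and 3.58 CPM (log2 fold change -1.31 ± 0.27, adjusted p 0.00253; 0.0506 without all libraries numbered 2). Il6ra fell from 51.5, 45.4 and 63.2 CPM to 23.3, 26.9 and 39.7 CPM (log2 fold change -0.83 ± 0.21, adjusted p 0.00939; lost without all libraries numbered 1 or 2, up to 0.112). For both, the 2 groups did not overlap.

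Il15ra, the chain that presents Il15, had a log2 fold change of -0.81 ± 0.23 (adjusted p 0.0202), which did not pass without Lip 1 (adjusted p up to 0.132 over the 15 fits) or when only the 2 groups were fitted. Ccl7 went from 41.2, 49.7 and 42.5 CPM to 33.7, 37.5 and 30.9 CPM (log2 fold change -0.39 ± 0.10, adjusted p 0.0135) and did not pass without Lip 2 or Lip+ISO 3 (up to 0.0990). Its groups lay just apart.

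Several members that rose with ISO alone had smaller log2 fold changes here and did not pass. Il33 was at 0.0344, 0.0966 and 0.609 CPM in Lip and at 2.63, 0.964 and 1.79 CPM in Lip+ISO, and its log2 fold change of 2.77 ± 1.00 just missed (adjusted p 0.0559; 0.0278 when blocked on the replicate number). Ccr1, at 0.687, 0.451 and 0.830 CPM against 1.66, 1.71 and 0.914 CPM, had 1.11 ± 0.39 (adjusted p 0.0532). Il1r1 had 0.45 ± 0.16 (adjusted p 0.0517, or 0.00914 with the block), Il10 1.35 ± 0.65 (0.156), Cxcl14 0.60 ± 0.29 (0.153) and Il1rl1 0.40 ± 0.37 (0.478).

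**Figure D4:**
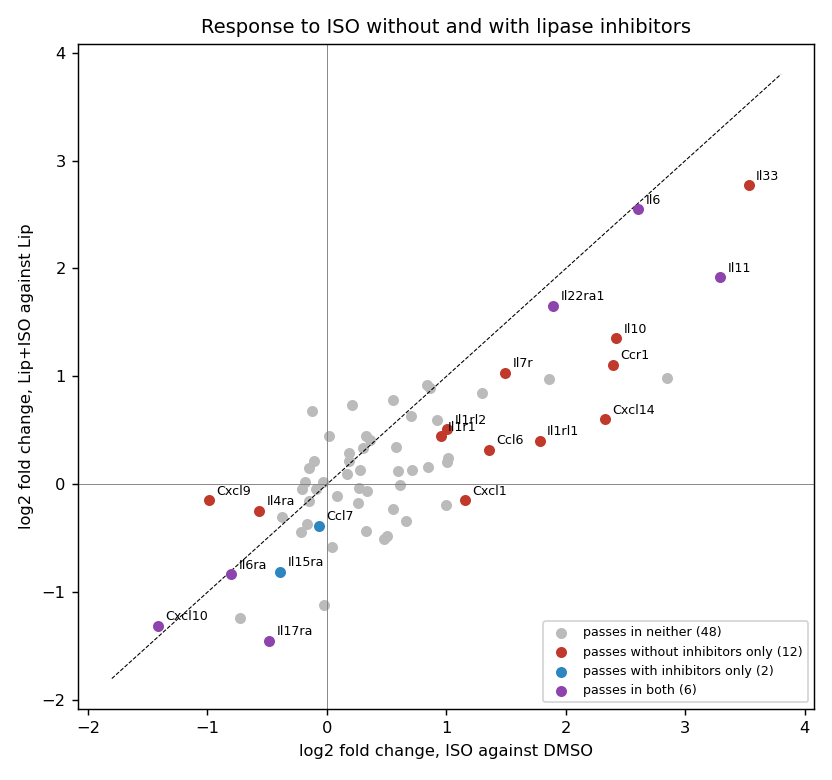
Log2 fold change with ISO in the presence of lipase inhibitors (vertical axis, Lip+ISO against Lip) against that in their absence (horizontal axis, ISO against DMSO) for the 68 tested members; the dashed line marks equal values and colours mark which test was passed. Il6 lies on the line, most of the genes that rose lie below it, and Il17ra lies furthest below it among those that fell.

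The inhibitors alone were compared with DMSO to see their effect on unstimulated cells. No member passed in either direction with edgeR's quasi-likelihood test or with DESeq2. In the edgeR test 5 of the 68 had an unadjusted p under 0.05, against 582 of all 13543 genes tested. By the adjusted p, 0.00738% of all genes tested were higher and 0.0443% lower. The smallest adjusted p was that of Il17ra, at 124, 112 and 138 CPM in DMSO and 179, 143 and 182 CPM in Lip, where no library overlapped (log2 fold change 0.43 ± 0.11, adjusted p 0.478). In the fit that blocks on the replicate number, Il17ra passed (adjusted p 0.0254).

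The last direct comparison, of Lip+ISO with ISO, shares its ISO libraries with the first one, so a high ISO value enters both. Cxcl14, Ccr1, Il1rl1 and Il17ra were lower with the inhibitors, and Il4ra and Il6st were higher. These were 4 of 68 members (5.88%, against 4.59% of all genes tested) and 2 of 68 (2.94%, against 4.36%), and the median log2 fold change was -0.15 against -0.01 over all genes.

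Cxcl14 was at 52.0, 64.0 and 70.5 CPM in ISO and at 16.8, 22.7 and 14.9 CPM in Lip+ISO, with a wide gap. It fell by 1.78 ± 0.29 on the log2 scale (3.43-fold, adjusted p 0.00208). Ccr1 went from 3.88, 4.79 and 4.89 CPM to 1.66, 1.71 and 0.914 CPM (log2 fold change -1.66 ± 0.37, adjusted p 0.0140; lost without ISO 2 or Lip+ISO 3, up to 0.195). Il1rl1 went from 5.55, 7.08 and 5.10 CPM to 2.67, 2.59 and 1.03 CPM (log2 fold change -1.495 ± 0.36, adjusted p 0.0212; lost without ISO 2 or Lip+ISO 3, up to 0.143). The groups were apart in all 3 genes. The sum of the macrophage markers was 75.7 to 128.3 CPM in Lip+ISO and 117.5 to 176.2 CPM in ISO, with overlap, and 1 of 11 (Tyrobp) passed as lower, and 3 of 6 fibroblast markers (Col1a1, Col1a2 and Pdgfra) passed as lower; their part in these differences was not tested.

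Il17ra was at 89.6, 79.0 and 99.5 CPM in ISO and at 60.7, 60.0 and 64.0 CPM in Lip+ISO. All Lip+ISO libraries were lower, and the log2 fold change was -0.54 ± 0.11 (adjusted p 0.0105; lost without ISO 3, up to 0.0939). Il4ra was at 931.1, 739.2 and 842.0 CPM in ISO and at 1194, 1268 and 1791 CPM in Lip+ISO, higher by 0.76 ± 0.17 (adjusted p 0.0137; lost without ISO 2 or ISO 3, up to 0.133). Il6st went from 258.3, 233.0 and 244.3 CPM to 297.8, 320.6 and 348.4 CPM, a small rise of 0.39 ± 0.08 (adjusted p 0.00709; lost without all libraries numbered 2 or 3, up to 0.180). Both receptor chains showed no overlap between the groups.

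Members near the threshold were Cxcl1, with a log2 fold change of -1.30 ± 0.38 and an adjusted p of 0.05 after rounding that lay just above it, and Il11 with -1.13 ± 0.33 (adjusted p 0.0551). Cxcl1 and Il11 passed as lower when the fit blocked on the replicate number (adjusted p 0.000211 and 0.0223). Cxcl1 was at 13.8, 17.4 and 23.0 CPM in Lip+ISO, a range like that of DMSO. Il6 was higher in all 3 Lip+ISO libraries than in any ISO library, but its difference of 0.53 ± 0.24 did not pass (adjusted p 0.203).

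Whether the response to ISO itself differed with inhibitors was tested as an interaction over all 12 libraries. Il17ra was the 1 member that passed (1.47% of 68, against 0.724% of all genes tested as lower), and none was higher (against 0.901%). The response of Il17ra was -0.48 without and -1.45 with inhibitors on the log2 scale, a difference of -0.96 ± 0.16 (adjusted p 0.00913; lost in each of the 3 fits that left out all libraries of 1 number, up to 0.134). Its Lip libraries were above its DMSO libraries and its Lip+ISO libraries below its ISO libraries, and both enter this difference. Cxcl14 had a difference of -1.72 ± 0.41 (adjusted p 0.0581), Il11 of -1.38 ± 0.50 (adjusted p 0.234) and Il6 of -0.06 ± 0.36 (adjusted p 0.967). When the fit blocked on the replicate number, Cxcl14 (adjusted p 0.00799), Cxcl1 (0.00624) and Il1rl1 (0.0408) passed as lower besides Il17ra (0.000235), and Cxcl14 also passed in DESeq2. Over the 68 members the median difference was -0.32, against -0.02 over all genes.

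Partner genes whose symbols fall outside the rule were counted from lists. Their counts stand beside 12.3% of all genes tested that were higher and 13.9% that were lower with ISO, and 11.5% and 15.8% with inhibitors present. Of 9 tested atypical chemokine receptors and other chemokine genes, 4 were higher and 0 lower with ISO, and the same counts were found in the presence of inhibitors. Ackr3, a scavenging receptor of Cxcl12, was at 13.0, 13.6 and 15.0 CPM in DMSO, at 51.7, 44.5 and 41.1 CPM in ISO, at 9.38, 10.0 and 12.04 CPM in Lip and at 111, 97.5 and 119 CPM in Lip+ISO. It was highest with ISO and inhibitors together, with log2 fold changes of 1.72 ± 0.12 without and 3.38 ± 0.13 with inhibitors and an interaction of 1.65 ± 0.17 (adjusted p 0.000418). Ccrl2, an atypical receptor that binds chemerin, rose by 3.00 ± 0.35 and by 3.597 ± 0.35 in the same 2 comparisons. Cx3cr1, the fractalkine receptor of macrophages, rose by 1.94 ± 0.47 and 1.497 ± 0.44. It was low in counts, at 0.158, 0.126 and 0.313 CPM in DMSO and 0.881, 0.678 and 0.778 CPM in ISO.

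Of 14 tested cytokines and receptors of related families, 7 rose and 1 fell with ISO, and 5 rose and 1 fell with inhibitors present. Clcf1, a ligand of the Cntfr and gp130 receptor, went from 32.0, 33.4 and 40.5 CPM in DMSO to 191, 186 and 217 CPM in ISO, and from 25.6, 25.5 and 30.0 CPM in Lip to 108, 88.4 and 122 CPM in Lip+ISO. It was higher with ISO in both settings (log2 2.49 ± 0.13 and 1.98 ± 0.13) and lower in Lip+ISO than in ISO (-0.90 ± 0.13, adjusted p 0.000761). Its receptor Cntfr rose by 3.67 ± 0.28 and 4.46 ± 0.28. Csf1, the growth factor of macrophages, fell from 841.1 to 856.2 CPM in the DMSO libraries to 487.7 to 501.5 CPM in ISO (log2 fold change -0.78 ± 0.08, adjusted p 1.87e-05).

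Of 26 tested signalling genes, 4 rose and 5 fell with ISO, and 7 rose and 6 fell with inhibitors present. Socs3, the feedback inhibitor of gp130 signalling, was at 10.4, 10.7 and 12.7 CPM in DMSO, at 57.1, 48.1 and 48.5 CPM in ISO, at 11.6, 12.3 and 12.8 CPM in Lip and at 180, 145 and 153 CPM in Lip+ISO. No stimulated library overlapped an unstimulated one, and the response was larger with inhibitors (log2 3.70 ± 0.12 against 2.19 ± 0.11, interaction 1.51 ± 0.15, adjusted p 0.000418). Stat5a fell in both settings, by 1.62 ± 0.10 and 1.76 ± 0.10, and Tyk2 by 0.56 ± 0.13 and 0.81 ± 0.13.

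Markers of other cells moved with ISO as well. With ISO against DMSO 6 of 11 tested macrophage markers rose and none fell, among them Cd14 (log2 2.41 ± 0.22), Cd68 (1.13 ± 0.23) and Lyz2 (1.07 ± 0.22), and 3 of 11 rose with inhibitors present. Of 6 fibroblast and progenitor markers 3 rose with ISO and none with inhibitors present. Among eosinophil markers Epx was at 0 to 0.0316 CPM in the 6 unstimulated libraries and at 2.14 to 10.2 CPM in the 6 stimulated ones, while Prg2 reached at most 0.0865 CPM and Siglecf 0.778 CPM. The T cell marker Cd3e did not exceed 0.715 CPM in a library. Of 2 tested mast cell markers 1 (Kit) and of 2 neutrophil markers 1 (S100a8) rose with ISO, and of 5 mesothelial markers 1 (Wt1) did. No endothelial marker of 6 passed, with a median log2 fold change of 0.92. Of 6 adipocyte markers 1 fell with ISO, 2 fell with inhibitors present and 1 was lower in Lip+ISO than in ISO, and none rose. No listed marker in the table was at 0 in every library. The part of any of these in the changes of the chemokine and interleukin genes was not tested.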

How the data were processed

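RNA was sequenced in 12 libraries of cultured white adipocytes. The authors aligned reads to mm9 with STAR 2.4.2a and summarized tag counts per gene with HOMER and iRNA-seq, accepting 1 read per position and length. The deposited table holds raw counts per RefSeq gene for each library, together with transcript and counted exon lengths, which the authors deposited in base pairs (unit: other than counts, used only for levels per kilobase). All count columns were used, and totals were 22632220 to 43707557. Nothing states that counting used strand.

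Groups were taken from sample titles. Genes were kept by filterByExpr in edgeR 4.0.16 (R 4.3.3), which left 13543 genes and 68 of 130 members. Libraries were scaled by TMM, and all 12 libraries entered 1 quasi-likelihood fit in which each group had its mean. P-values of each contrast come from the two-sided F-test of that fit, adjusted by the Benjamini-Hochberg method over all genes, and a gene passed at 0.05. The common biological coefficient of variation was 0.163. A log2 fold change comes from this fit, with its standard error. CPM values are scaled by TMM and have no prior count.

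Members named are all that passed in a comparison, the 10 highest per kilobase and a fixed list of well-studied members. Members, lists and motifs were chosen with earlier results of these data known. Genes named outside this rule were chosen after their values were seen. Promoter windows were read from the genome of build NCBIM37 (mm9) at the starts in the table. Of the 18 members that changed with ISO, Il10 and Il17ra had no entry in the RefSeq promoter table (GRCm38) and their windows are not shown.

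Alternatives were RLE scaling, library totals, DESeq2 1.42.0, other filters, a fit of only the 2 groups, a minimum log2 fold change of 1, each library left out, each replicate number left out and the replicate number as a block. Deviations of same-numbered libraries from their group means correlated by 0.139 to 0.331 in ISO against DMSO, 0.192 to 0.298 in Lip+ISO against Lip and 0.197 to 0.369 in Lip against DMSO. In Lip+ISO against ISO they correlated by 0.037 to 0.311. Each library correlated better on average with its own number in the other groups (0.118 to 0.343) than with other numbers. The sample titles do not state that equal numbers share an experiment. The main fit has no term for the number, so its p-values use no pairing, and the block is the alternative that does.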

Additional observations from a re-analysis of the deposited data

Results flagged for a closer look

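Il17ra, a chain of the Il17 receptors, stood out because its responses to ISO in the presence and in the absence of lipase inhibitors differed by a test of the difference itself. The response with inhibitors minus that without was -0.96 on the log2 scale (SE 0.16, adjusted p 0.00913, edgeR's quasi-likelihood test). It no longer passed in any of the 3 fits that left out all libraries of 1 replicate number (adjusted p up to 0.134). Levels in the 3 Lip+ISO libraries (60.0 to 64.0 CPM) were below the 9 others (79.0 to 182 CPM).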

How the results depend on the processing

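The log2 fold changes printed for single members kept their direction under every alternative except, when libraries were left out, the interaction of Il6 (-0.06, from -0.478 to 0.14) and Il18r1 in ISO against DMSO (0.33, from -0.261 to 2.92). Partner and marker genes were not run under the alternatives. Counts of members that passed depended more on the setting, and the shares of all genes in each setting are not given here. For ISO against DMSO, 6 to 18 were higher and 2 to 5 lower with libraries left out (13 and 5 with all), fewest without the libraries numbered 3, with 7 without DMSO 1 and 8 without DMSO 3, and 1 was lower with a minimum log2 fold change of 1. There, the replicate block lost no call and added Ccl11, Il16, Il1rn, Il20rb and Il2rg as higher and Ccl2 as lower. DESeq2 added Il1rn, Il20rb and Il31ra as higher. For Lip+ISO against Lip, 3 were higher and 5 lower with all libraries, against 2 to 7 and 1 to 6 with libraries left out. There, 7 were higher with RLE size factors, 8 with DESeq2, 5 with at least 1 CPM in 3 libraries and 10 with the replicate block, and 8 were lower with library totals alone and 2 with the minimum fold change. For Lip against DMSO, 1 was higher with the replicate block and 0 in each fit with libraries left out. For Lip+ISO against ISO, 2 were higher and 4 lower, against 0 to 3 and 1 to 6 with libraries left out, 0 higher with the minimum fold change, and 7 lower with DESeq2, 7 with only the 2 groups and 10 with the replicate block. For the interaction, 0 were higher and 1 lower, against 0 and 0 to 2 with libraries left out, 1 higher and 2 lower with DESeq2, 2 lower with no filter, 4 with the replicate block and 0 with the minimum fold change. The main fit does not use the replicate number, although each library correlated better on average with its own number than with others. In ISO against DMSO, Lip+ISO against Lip and Lip against DMSO the block changed no call printed for a single member beyond those given above for Ccl2, Ccl11, Il1rn, Il33, Il1r1 and Il17ra. The calls that the block added for Cxcl1 and Il11 in Lip+ISO against ISO, and those in the interaction, are also given above. The cause was not tested. Low counts limit Il33, Il10 and Il22ra1, all members too low to test and, outside the members, Cx3cr1.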
